A study of Mus musculus with 6 samples.

Results

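The 10 genes described here are 4 feedback inhibitors of cytokine signaling (*Cish*, *Socs1*, *Socs2*, and *Socs3*), 4 STAT transcription factors (*Stat3*, *Stat4*, *Stat5a*, and *Stat5b*), and 2 Pim kinases (*Pim1* and *Pim2*). They were picked by name from the 57126 genes of the deposited count table, and all 10 were found and passed the filter on low counts. RNA came from CD8+ T cells of OT-I mice, which carry a transgenic T cell receptor for an ovalbumin peptide, taken from lymph nodes and spleens and harvested after expansion until day 6. Both groups were stimulated with nano-aAPCs, nanoparticles that carry peptide-loaded MHC class I and an antibody to CD28. The 3 TEff samples were expanded in IL-2 alone, and the 3 TRM-like samples in IL-2 to which IL-15 and TGF-β were added, so that the effects of IL-15 and TGF-β cannot be told apart. The labels do not say whether the replicates came from separate mice or cultures, so p-values measure the spread between these samples only. They also give no age or sex of the mice.

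IL-2 and IL-15 share the β and common γ chains of their receptors and signal through the kinases JAK1 and JAK3, which phosphorylate STAT5A and STAT5B. STAT5 dimers enter the nucleus and switch on genes that include *Cish*, *Socs1*, *Socs2*, *Socs3*, *Pim1*, and *Pim2*. The CIS and SOCS proteins then dampen the same receptors and kinases, and the Pim kinases promote survival and growth. STAT4 is activated mainly by IL-12, and STAT3 by cytokines such as IL-6, IL-10, and IL-21.

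The libraries held 18319013 to 21960760 counts in the TEff samples and 21178756 to 23622621 in the TRM-like samples. TRM-like replicate 3 stood apart from the other two libraries of its group. The chi-square per gene, close to 1 when a pair of libraries differs by counting noise only, was 7.26 between TRM-like replicates 1 and 2, 96.3 and 112 between each of these and replicate 3, and 3.73 to 26.1 among the TEff samples. Between TRM-like replicate 3 and TEff replicates 1 to 3 it was 41.9, 82.4, and 37.4, each lower than between replicate 3 and its own group. The summed level of 8 proliferation genes (*Mki67*, *Top2a*, *Mcm2*, *Mcm5*, *Pcna*, *Cdk1*, *Ccnb1*, and *Birc5*) was 4400, 3014, and 4430 CPM (counts scaled to a common TMM library size) in TEff replicates 1 to 3. It was 2343, 2182, and 5021 CPM in TRM-like replicates 1 to 3. Genes with a count numbered 35130 and 35559 in TRM-like replicates 1 and 2, against 24229 to 24908 in the other 4 libraries. All 7 CD8 T cell markers were well above background, at no less than 74.5 CPM in any library, while *Cd4* was at 0.11 CPM at most. The summed level of 4 B cell markers was 5.94 to 6.78 CPM in TEff and 7.29 to 10.4 CPM in TRM-like samples, and that of 5 myeloid markers was 4.66 to 9.72 and 0.78 to 5.58 CPM. That of 2 NK cell markers was 9.83 to 22.0 and 0.09 to 8.77 CPM, and the 2 hemoglobin genes reached 0.04 CPM at most, with 1 at 0 counts in every library. Under 1 CPM in every library were 2 of the B cell, 4 of the myeloid, and 1 of the NK cell markers. Their part in the results was not tested.

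STAT5 and STAT3 bind the palindrome TTCNNNGAA, which reads the same on both strands. It was searched within 1000 bases of the GENCODE M39 5′ end of each of the 9 members that RefSeq's promoter table holds, which leaves out *Socs2*, and of all 21770 protein-coding genes placed on GRCm39. *Cish* held 5 copies, *Socs3* and *Pim2* held 2 each, *Socs1* held 1, and the other 5 members held 0. The narrower TTCCNGGAA, which is contained in it, was held 2 times by *Cish* and once by *Socs3*. Among all protein-coding genes, 45.7% held at least 1 copy, 13.3% held at least 2, and 21 genes, or 0.1%, held at least 5. The copies are shown on the strand of their gene, with the palindrome in capitals and 8 bases on either side, because they set *Cish* apart from the other members searched. The *Cish* copies lie at chr9:107172725-107172733, chr9:107173858-107173866, chr9:107173869-107173877, chr9:107173963-107173971, and chr9:107173980-107173988 of GRCm39, 1 before the 5′ end and 4 after it.
Cish copy 1: tacccataTTCCAAGAAactggctt
Cish copy 2: gcccagttTTCCTGGAAagttcttg
Cish copy 3: ctggaaagTTCTTGGAAatctgtca
Cish copy 4: gcccgcggTTCTAGGAAgatgaggc
Cish copy 5: gatgaggcTTCCGGGAAgggctggg
Socs1 copy 1, chr16:10603845-10603853: tagccgggTTCCAAGAAgggtcgag
Socs3 copy 1, chr11:117860338-117860346: aaccagccTTCTTAGAAgggagggg
Socs3 copy 2, chr11:117860065-117860073: ccgggcagTTCCAGGAAtcgggggg
Pim2 copy 1, chrX:7744000-7744008: ttttacccTTCCCTGAAgagtggac
Pim2 copy 2, chrX:7744272-7744280: caaaggaaTTCCCAGAAgcgtgcat
In the shorter RefSeq windows of 250 bases before each start (table build GRCm38.p6), 1 of the 13 windows of these 9 members held the palindrome, that of *Socs3*, against 7.02% of all 32851 windows. Placed on GRCm39, the *Cish* window ends at chr9:107173857, directly before the first base of its copy 2. These letters are a description, and binding was not measured.

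Of the 10 members, 2 rose in the TRM-like cells, *Socs1* and *Pim2*, and 0 fell, by edgeR's quasi-likelihood test. The threshold was an adjusted p under 0.05 together with a log2 fold change (log2FC, TRM-like over TEff) beyond 0.58 in size. The same rule called 3.01% of the 26154 genes tested, 1.52% as higher and 1.48% as lower. An unadjusted p under 0.05 was found for 7 of the 10, against 14.8% of all genes tested. In 7 members the 3 TRM-like samples did not overlap the 3 TEff samples in CPM, 4 higher and 3 lower, against 20.3% of all genes tested. Of the 26154 genes tested, 14822 reached 10 counts in every sample, while each member had at least 452. The shares thus come partly from genes with far fewer counts than the members. The log2FC was above 0 in 5 members and below 0 in 5, with a median of -0.035 against 0.017 over all genes. Without TRM-like replicate 3, 4 members passed the same test, when 14.0% of all genes did. *Socs1* and *Pim2* were then higher, and *Socs3* and *Pim1* lower. In bulk RNA, fewer cells that express a gene and less RNA per cell cannot be told apart.

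**Figure D1:**
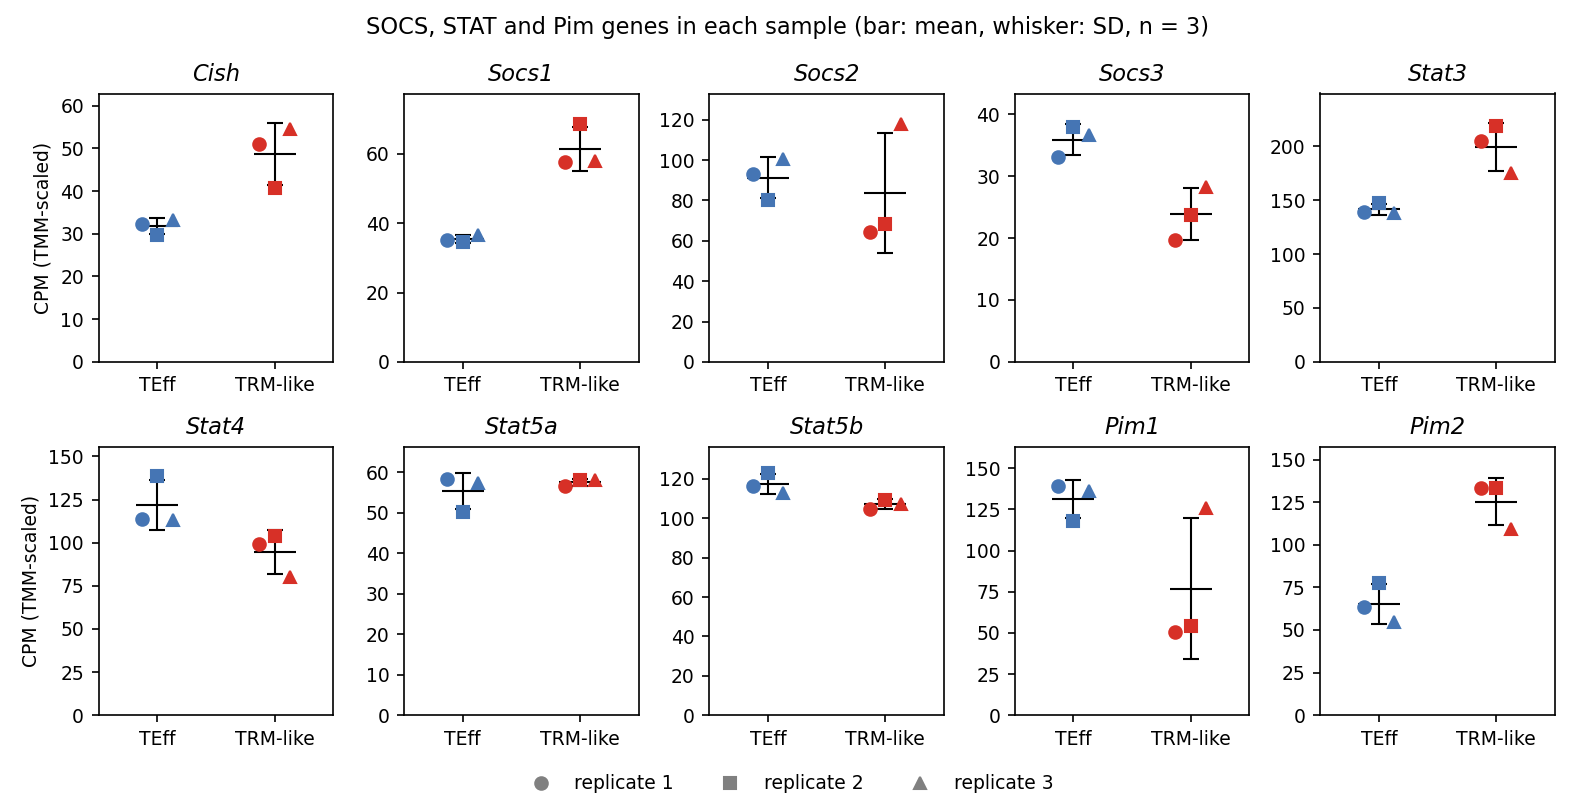
CPM (TMM-scaled) of each of the 10 genes in every sample, with TEff samples in blue and TRM-like samples in red, the mean as a bar, and the SD as a whisker (n = 3). *Socs1*, *Cish*, *Stat3*, and *Pim2* lie higher in each TRM-like sample than in any TEff sample, while *Pim1* and *Socs2* in TRM-like replicate 3 lie far above replicates 1 and 2.

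Among the feedback inhibitors, *Socs1* (ENSMUSG00000038037.6, chr16:10600104-10603875 of GRCm39) encodes a protein that inhibits JAK kinases directly. It was at 35.3, 34.5, and 36.6 CPM in TEff replicates 1 to 3 and at 57.7, 68.7, and 57.9 CPM in TRM-like replicates 1 to 3. The TEff values lay close together, and every TRM-like sample was above them. *Socs1* rose by 0.79 in log2, or 1.73-fold (standard error, SE, 0.13, 95% interval 0.50 to 1.08, edgeR adjusted p = 0.0115). Its direction held with each sample left out in turn (0.70 to 0.84), but the call was lost without TEff replicate 1, 2, or 3 or TRM-like replicate 2, where edgeR gave an adjusted p of 0.0974, 0.0638, 0.0782, and 0.0535. It was kept under the other alternatives.

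*Cish* (ENSMUSG00000032578.8, chr9:107173225-107179983) encodes CIS, which binds activated cytokine receptors and phospholipase C-γ1 and restrains T cell receptor and IL-2 or IL-15 signaling. It was at 32.4, 29.7, and 33.3 CPM in the TEff samples and at 50.9, 40.6, and 54.4 CPM in the TRM-like samples. The groups did not overlap, and TRM-like replicate 3, which stood apart in other genes, had the highest value. The log2FC of 0.61 (SE 0.14, 95% interval 0.29 to 0.94) narrowly missed the threshold, at an edgeR adjusted p of 0.0623. DESeq2 placed it past the threshold at 0.63 (DESeq2 adjusted p = 0.0110), and edgeR over the 16858 genes kept by filterByExpr did so at 0.63 (edgeR adjusted p = 0.0390). Over all alternatives its adjusted p ran from 0.00720 to 0.241, and it was past the threshold under 6 of the 9 that kept all samples and under 0 of the 6 that left one out. An antisense long noncoding gene that overlaps *Cish*, *Gm67592*, had 22 to 79 counts per library, against 586 to 1180 for *Cish*, and without a stated strand setting their reads cannot be told apart.

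*Socs3* (ENSMUSG00000053113.4, chr11:117856905-117860898), the inhibitor best known for acting on the gp130 chain of the IL-6 receptor family, had the opposite direction. It was at 33.1, 38.0, and 36.6 CPM in the TEff samples and at 19.7, 23.7, and 28.2 CPM in the TRM-like samples. All TRM-like samples were below all TEff samples, with replicate 3 nearest to them. The log2FC of -0.59 (SE 0.16, 95% interval -0.94 to -0.23) did not pass the test (edgeR adjusted p = 0.0967). Without TRM-like replicate 3, *Socs3* fell by 0.74 in log2 (edgeR adjusted p = 0.00104), and over all alternatives its adjusted p ran from 0.00104 to 0.344.

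*Socs2* (ENSMUSG00000020027.19, chr10:95219523-95253929), whose protein is best known for dampening growth hormone signaling, showed no common direction. It was at 92.9, 80.3, and 100.6 CPM in the TEff samples, at 64.5 and 68.4 CPM in TRM-like replicates 1 and 2, and at 118 CPM in TRM-like replicate 3. The 2 TRM-like samples with the low proliferation sum were thus below the TEff range and the third was above it. Over all samples the log2FC was -0.13 (SE 0.23, 95% interval -0.65 to 0.39, edgeR adjusted p = 0.855). Without TRM-like replicate 3 it was -0.47 (edgeR adjusted p = 0.0141), under the fold change limit.

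Among the STAT genes, *Stat5a* (ENSMUSG00000004043.15, chr11:100750177-100776065) and *Stat5b* (ENSMUSG00000020919.12, chr11:100671556-100741589) are neighbors that encode closely related transducers of the IL-2 and IL-15 signal. *Stat5a* was at 58.3, 50.2, and 57.4 CPM in the TEff samples and at 56.5, 58.0, and 58.1 CPM in the TRM-like samples. *Stat5b* was at 116.5, 123.1, and 112.9 CPM in the TEff samples and at 104.7, 109.5, and 107.5 CPM in the TRM-like samples. The groups overlapped for *Stat5a*, and for *Stat5b* they lay just apart. The log2FC was 0.06 for *Stat5a* (SE 0.12, 95% interval -0.22 to 0.33, edgeR adjusted p = 0.874). For *Stat5b* it was -0.13 (SE 0.12, 95% interval -0.40 to 0.14, edgeR adjusted p = 0.676). Neither interval reaches the limit of 0.58. Of the distinct 50-base stretches of the GENCODE M39 transcripts, 6.96% of those of *Stat5a* also occur in *Stat5b*, and 7.45% of those of *Stat5b* in *Stat5a*, and how such reads were counted is not given in the sources used here.

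*Stat3* (ENSMUSG00000004040.17, chr11:100775924-100830450), which lies next to *Stat5a* on the opposite strand and shares 142 exon bases with it, had higher values in the TRM-like cells. It was at 138.9, 147.4, and 137.9 CPM in the TEff samples and at 205.3, 218.6, and 174.9 CPM in the TRM-like samples. The groups did not overlap, but the log2FC of 0.50 (SE 0.14, 95% interval 0.19 to 0.80) was under the limit of 0.58 and its adjusted p was 0.103 (from edgeR). *Stat4* (ENSMUSG00000062939.12, chr1:52026307-52151423), the transducer of IL-12, was at 113.8, 138.6, and 113.1 CPM in the TEff samples and at 99.5, 103.8, and 80.0 CPM in the TRM-like samples. All TRM-like values were below all TEff values, with a log2FC of -0.37 (SE 0.15, 95% interval -0.71 to -0.02, edgeR adjusted p = 0.308). An antisense gene that overlaps *Stat4*, *Gm31812*, had 41 to 119 counts per library, against 1734 to 2737 for *Stat4*. Of the distinct 50-base stretches of the *Stat4* transcripts, 28.40% also occur in *Gm31812*. Without a stated strand setting their reads cannot be told apart.

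The 2 Pim kinases, whose genes are both targets of STAT5, lay on opposite sides of the TEff samples in TRM-like replicates 1 and 2. *Pim2* (ENSMUSG00000031155.18, chrX:7744501-7749689) was at 63.2, 77.9, and 54.8 CPM in the TEff samples and at 133.3, 133.2, and 109.6 CPM in the TRM-like samples. Each TRM-like sample was above each TEff sample. *Pim2* rose by 0.94 in log2, or 1.92-fold (SE 0.16, 95% interval 0.57 to 1.31, edgeR adjusted p = 0.0173). Its direction held with each sample left out (0.84 to 1.09), but the call was lost without TEff replicate 1 or 3 or TRM-like replicate 1 or 2, where edgeR gave an adjusted p of 0.127, 0.114, 0.0645, and 0.0739. It was kept under the other alternatives.

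*Pim1* (ENSMUSG00000024014.9, chr17:29709581-29715086) was at 139.4, 118.0, and 136.3 CPM in the TEff samples. In the TRM-like samples it was at 50.5 and 54.1 CPM in replicates 1 and 2 and at 126.1 CPM in replicate 3. Replicates 1 and 2 were thus below every TEff sample, and replicate 3 lay within the TEff range. Over all samples the log2FC was -0.77 (SE 0.32, 95% interval -1.49 to -0.05, edgeR adjusted p = 0.306). Without TRM-like replicate 3, *Pim1* fell by 1.34 in log2 (edgeR adjusted p = 4.90e-06), and over all alternatives its adjusted p ran from 4.90e-06 to 0.673.

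**Figure D2:**
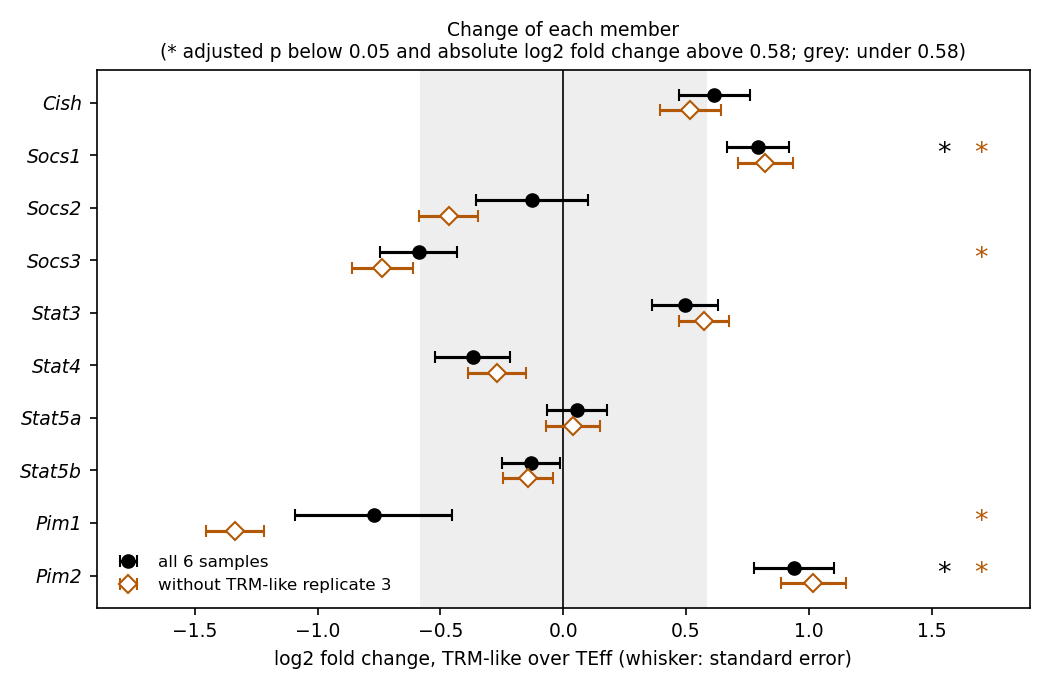
Log2 fold change of each gene, TRM-like over TEff, with its SE as a whisker, from edgeR with all 6 samples (filled circles) and without TRM-like replicate 3 (open diamonds). Asterisks mark the genes past the threshold, 2 with all samples and 4 without that library, and the grey band spans changes under 0.58.

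TRM-like replicate 3 did not differ from replicates 1 and 2 in the same direction for all members. Its log2 level minus the mean of replicates 1 and 2 was 1.27 for *Pim1*, 0.82 for *Socs2*, 0.39 for *Socs3*, and 0.26 for *Cish*. The same difference was 0.02 for *Stat5a*, 0.01 for *Stat5b*, and -0.12 for *Socs1*, and it was -0.28 for *Stat3*, -0.28 for *Pim2*, and -0.35 for *Stat4*. *Pim1* and *Socs2* were thus the members with the highest replicate 3 relative to its group. The proliferation sum, relative to the TEff mean in log2, was -0.73 and -0.83 in TRM-like replicates 1 and 2 and 0.37 in replicate 3, and its part in the level of *Pim1* and *Socs2* was not tested.

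**Figure D3:**
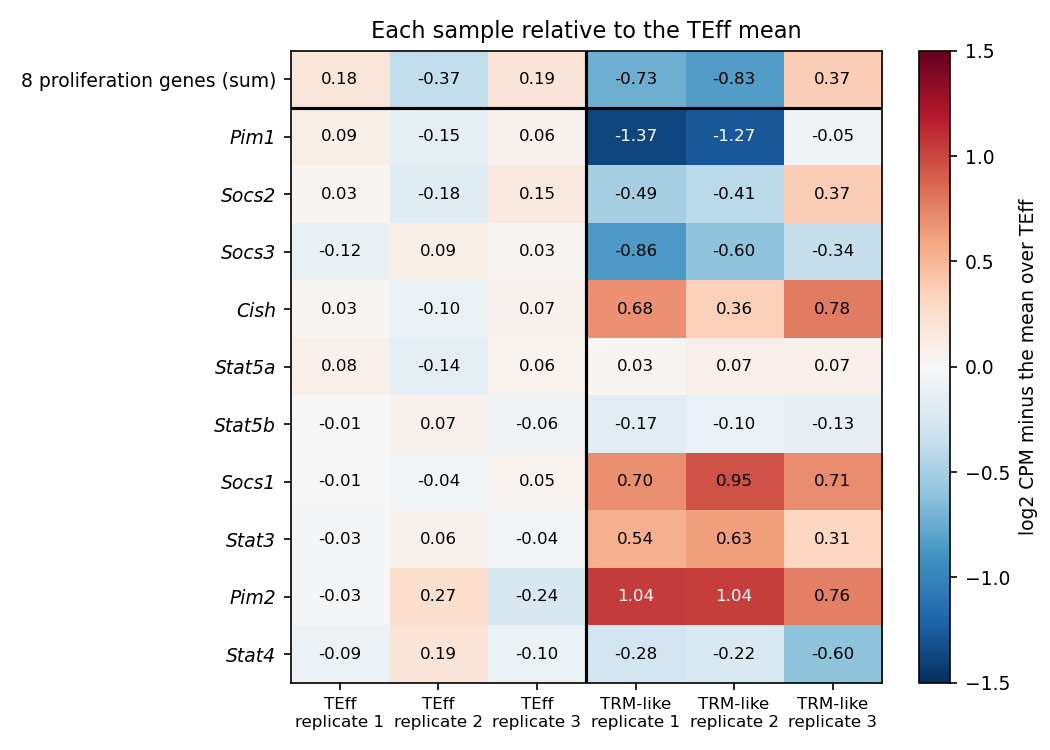
Log2 CPM of each gene in each sample minus its mean over the TEff samples, with the sum of the 8 proliferation genes in the top row. Genes are ordered by how far TRM-like replicate 3 lay above replicates 1 and 2, from *Pim1* at 1.27 to *Stat4* at -0.35.

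The ratio of a pair of genes inside a library does not depend on how libraries are scaled to each other, and 9 such pairs were compared. In 8 of them the TRM-like samples did not overlap the TEff samples, and each of these had p = 0.10 (exact permutation test, two-sided, adjusted p = 0.112), the smallest that 3 samples against 3 allow. The pairs share genes and are not independent of each other. They were built from members chosen with earlier results of these data known, 7 of which already did not overlap by themselves. How often pairs of other genes do not overlap was not computed. For each count of *Socs3* there were 1.07, 0.907, and 1.00 counts of *Socs1* in TEff replicates 1 to 3, and 2.92, 2.90, and 2.05 in TRM-like replicates 1 to 3. Counts of these inhibitors were thus near equal in the TEff samples, and *Socs1* was in excess in each TRM-like sample, a difference of 1.39 in log2, between means of -0.02 ± 0.12 and 1.37 ± 0.29 (SD, n = 3 each).

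Relative to the summed counts of *Stat5a* and *Stat5b*, *Socs1* was at 0.202, 0.199, and 0.215 in the TEff samples and at 0.358, 0.410, and 0.350 in the TRM-like samples. On the same scale *Cish* was at 0.185, 0.171, and 0.195 in the TEff samples and at 0.316, 0.243, and 0.329 in the TRM-like samples. More transcript of both inhibitors was thus counted for each STAT5 transcript in every TRM-like sample, by 0.86 and 0.67 in log2. The pair of *Cish* and *Socs1* was the one that overlapped, with a log2 difference of -0.18 (p = 0.70, exact permutation test, two-sided, adjusted p = 0.70). This difference was 0.025 without TRM-like replicate 2 and -0.31 without TRM-like replicate 3.

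Counts of *Stat4* per count of *Stat3* were 0.819, 0.940, and 0.820 in the TEff samples and 0.485, 0.475, and 0.457 in the TRM-like samples. This pair had the tightest TRM-like values after *Stat5a* and *Stat5b*, and TRM-like replicate 3 lay with the other two libraries. Counts of *Pim1* per count of *Pim2* were 2.20, 1.52, and 2.49 in the TEff samples and 0.379, 0.406, and 1.15 in the TRM-like samples. Here replicate 3 lay between the other TRM-like samples and the TEff samples. The log2 difference was -0.86 for *Stat4* over *Stat3* and -1.85 for *Pim1* over *Pim2*.

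The remaining pairs showed smaller or less even differences. Counts of *Stat5a* per count of *Stat5b* were 0.500, 0.408, and 0.509 in the TEff samples and 0.540, 0.530, and 0.540 in the TRM-like samples. *Cish* per count of *Socs2* was 0.349, 0.369, and 0.331 in the TEff samples and 0.789, 0.594, and 0.462 in the TRM-like samples. The log2 difference was 0.19 for *Stat5a* over *Stat5b*, 0.78 for *Cish* over *Socs2*, and 0.30 for the STAT5 sum over *Stat4*. The first was 0.089 without TEff replicate 2, and the last was 0.18 without TRM-like replicate 3.

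**Figure D4:**
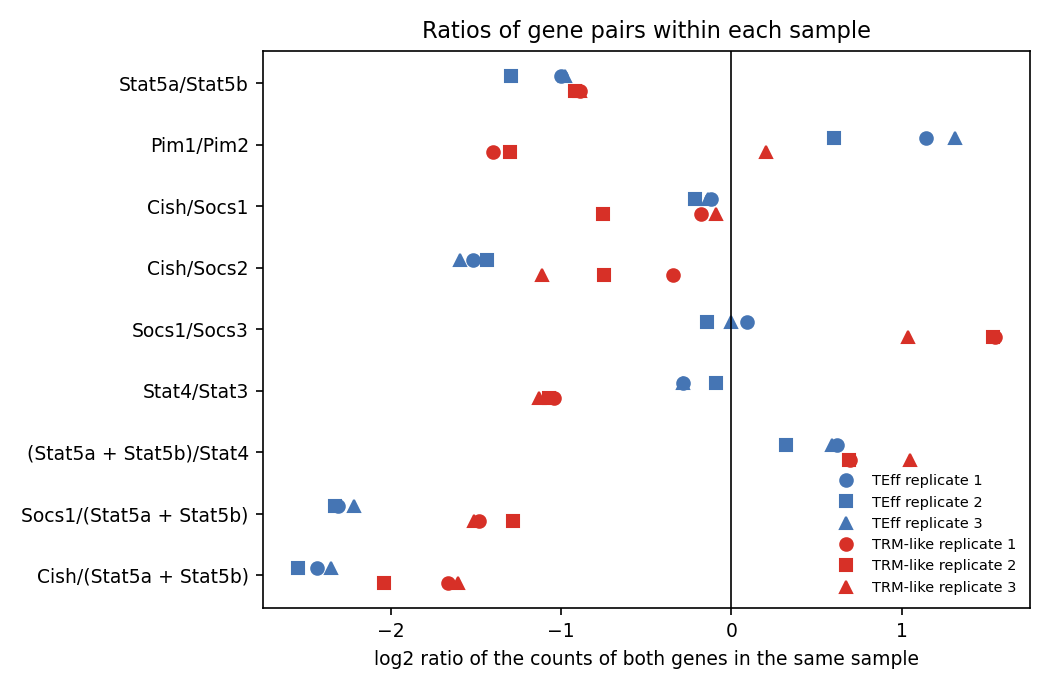
Log2 ratio of the counts of both genes of a pair in the same sample, for 9 pairs, with TEff samples in blue and TRM-like samples in red. The groups lie apart in 8 pairs, with the largest gap between group means for *Pim1* over *Pim2* (-1.85), and overlap for *Cish* over *Socs1*.

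Levels of different genes were compared per kilobase of the deposited gene length (RPKM on the TMM scale). The order of genes depends on these lengths. The exons in GENCODE M39 cover 15258 bases for *Socs2* against 2698 deposited, 8255 against 3968 for *Stat5a*, and 3383 against 2908 for *Socs1*. The order on the M39 lengths was not computed. In the TEff cells the order of levels was *Pim1* (42.2 ± 3.72 RPKM, SD, n = 3), *Stat4* (38.7 ± 4.61), *Socs2* (33.8 ± 3.79), and *Pim2* (31.9 ± 5.70), each of which overlapped the next. *Stat3* (22.7 ± 0.838) and *Stat5b* (21.2 ± 0.931) followed and overlapped each other, then *Socs3* (14.1 ± 1.00) and *Stat5a* (13.9 ± 1.12), which also did. *Socs1* (12.2 ± 0.377) and *Cish* (8.71 ± 0.514) came last, each apart from the gene before it. The inhibitors *Socs1* and *Cish* were thus the least abundant members per deposited length in the TEff cells.

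In the TRM-like cells *Pim2* led at 61.3 ± 6.68 RPKM (SD, n = 3), apart from all other members. *Stat3* (32.0 ± 3.60), *Socs2* (31.0 ± 11.0), *Stat4* (30.0 ± 4.04), and *Pim1* (24.7 ± 13.7) followed, each overlapping the next, and *Pim1* overlapped *Socs1* (21.1 ± 2.16). *Stat5b* (19.4 ± 0.441) was apart from *Socs1* above it and *Stat5a* (14.5 ± 0.220) below it. *Stat5a* overlapped *Cish* (13.3 ± 1.96), and *Socs3* (9.35 ± 1.67) was lowest. On the deposited lengths, *Socs1* thus lay below *Stat5a* in the TEff cells and above *Stat5b* in the TRM-like cells. On the same lengths, *Socs3* went from level with *Stat5a* to below it.

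The rest of the pathway was read from 7 lists with 66 genes outside the members, of which 63 were tested. In these lists 2 genes rose and 4 fell by the same edgeR test, when 3.01% of all genes tested passed in either direction. The median log2FC of the listed genes was 0.06 against 0.017 over all genes. The median log2FC of the 8 other SOCS, STAT, and Pim genes was 0.08. Without TRM-like replicate 3, 9 of the pathway genes rose and 12 fell, when 14.0% of all genes passed in either direction. *Stat2*, a transducer of type I interferon signaling, was at 26.1, 31.4, and 32.2 CPM in the TEff samples and at 60.1, 57.6, and 43.5 CPM in the TRM-like samples. Every TRM-like sample was above every TEff sample, and replicate 3 was the lowest of its group. *Stat2* rose by 0.85 in log2 (SE 0.16, edgeR adjusted p = 0.0261).

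Upstream, 0 of the 8 genes for IL-2 and IL-15 receptor chains and Janus kinases passed edgeR's test, with 2 at an unadjusted p under 0.05, *Il15ra* and *Jak3*, and a median log2FC of 0.05. Over all genes tested, 14.8% had an unadjusted p under 0.05. *Il15ra*, the chain that binds IL-15, was at 5.86 to 7.32 CPM in the TEff and 9.04 to 11.2 CPM in the TRM-like samples, with a log2FC of 0.61 (edgeR adjusted p = 0.123). *Jak3* had a log2FC of 0.60 (edgeR adjusted p = 0.261). *Il2ra*, the IL-2 receptor α chain, was added after its values were seen. It was at 271, 213, and 315 CPM in the TEff samples and at 121, 120, and 271 CPM in the TRM-like samples, so that replicate 3 again lay in the TEff range as it did for *Pim1*. Without replicate 3, *Il2ra* fell by 1.15 in log2 (edgeR adjusted p = 0.000135). The ligand genes *Il2* and *Il15* were both at 0.55 CPM or less in every sample, with 0 of 2 past the test and 0 at an unadjusted p under 0.05.

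Of 15 genes listed as other negative regulators of JAK-STAT signaling, 0 passed edgeR's test, with 4 at an unadjusted p under 0.05 (14.8% over all genes). Their median log2FC was 0.04. The 2 with the smallest p were *Sh2b3* and *Dusp5*. *Sh2b3*, which encodes the adaptor LNK, had a log2FC of 0.73 (edgeR adjusted p = 0.0596). *Dusp5*, on this list though it encodes an ERK phosphatase, had -0.55 (edgeR adjusted p = 0.0583). Of 12 receptors and ligands that signal through STAT3 or STAT4, 10 were tested and 0 passed edgeR's test, with 5 at an unadjusted p under 0.05 (14.8% over all genes) and a median log2FC of 0.41. *Il27ra* had a log2FC of -0.64 (edgeR adjusted p = 0.0560) and *Il21r* of 0.49 (edgeR adjusted p = 0.147).

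Downstream, 2 of 14 textbook STAT5 targets outside the members fell and 0 rose, when 1.48% and 1.52% of all genes tested did. The median log2FC of the 14 was -0.18. Without TRM-like replicate 3, 6 fell, when 14.0% of all genes passed in either direction. The list was not split by whether STAT5 raises or lowers a gene, so its median has no single expected direction. *Gzmb*, which encodes granzyme B, was at 2056, 1454, and 2318 CPM in the TEff samples and at 519, 517, and 513 CPM in the TRM-like samples, and fell by 1.91 in log2 (SE 0.19, edgeR adjusted p = 0.00130). *Prf1*, which encodes perforin, fell by 2.67 (SE 0.22, edgeR adjusted p = 0.000438), from 30.6 to 46.4 CPM to 4.89 to 7.72 CPM. For both, TRM-like replicate 3 lay with replicates 1 and 2, and the direction was opposite to that of *Socs1* and *Pim2*. Of 8 targets of STAT4 or STAT3, 7 were tested and 2 fell, both chains of the IL-18 receptor, when 1.48% of all genes tested fell. The median log2FC of these targets was -0.26. *Il18r1* was at 229 to 309 CPM in the TEff and 58.9 to 64.7 CPM in the TRM-like samples and fell by 2.08 in log2 (SE 0.16, edgeR adjusted p = 0.000254), and *Il18rap* fell by 1.83 (SE 0.15, edgeR adjusted p = 0.000392).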

How the data were processed

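Per the labels and the study's methods, total RNA libraries were made with a stranded kit, and the authors trimmed the reads with Cutadapt (version 4.8 in the submitters' processing notes), mapped and counted them with Rsubread on GENCODE M34 (GRCm39), and deposited raw counts per gene, not normalized, with gene lengths in bases. The strand setting and the counting of multiply mapped reads are not given in the sources used here. The study removed a batch for its plots without naming it, so none was modeled.

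The 6 samples were grouped by their titles. Symbols and GRCm39 coordinates came from GENCODE M39, which held 56620 of the 57126 gene identifiers, matched without their version. Identifiers are printed as deposited. The 26154 genes that had 1 or more counts in 3 or more samples were tested with edgeR 4.0.16 in R 4.3.3 (TMM, glmQLFit, glmQLFTest, Benjamini-Hochberg over all genes tested). The standard error is the size of the log2 fold change divided by the square root of F, and intervals use 8.97 degrees of freedom. Genes past the study's thresholds had an adjusted p under 0.05 and a log2 fold change beyond 0.58 in size. The members held 452 to 5003 counts in each sample. The fits were tested on simulated data, in which no library stood apart from its group as TRM-like replicate 3 did. Alternatives were DESeq2 1.42.0, limma-voom (limma 3.58.1), other normalizations and filters, the adjusted p alone, the replicate number as a block, and each sample left out.

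Members and lists were chosen with earlier results of these data known. Named genes were the 10 members and, in each list, the genes past the threshold (at most 5), or the 2 with the smallest p where there were none. *Il2ra* and the genes in the last paragraph of the closing section were named after their values were seen. A result that this rule would name is not reported here.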

Additional observations from a re-analysis of the deposited data

How the results depend on the processing

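Of the 10 members, 2 passed the threshold (2 higher, 0 lower). The number was 5 (2 lower) with no filter on low counts, with the replicate block, and with that block over genes that reached 10 counts in each sample. With each sample left out it was 0 to 4, 0 to 2 higher and 0 to 2 lower, the highest without TRM-like replicate 3. Of the pathway-list genes, 6 passed (2 higher, 4 lower). The number was 15 with DESeq2 (6 higher, 9 lower), 19 with no filter (9 higher, 10 lower), 19 with the replicate block (8 higher, 11 lower), and 13 with that block over genes with at least 10 counts (4 higher, 9 lower). With each sample left out it was 5 to 21, 1 to 9 higher and 4 to 12 lower. The cause of these differences, the fewer degrees of freedom with fewer samples included, was not tested. The labels do not say whether the replicate number pairs the samples. The correlation of same-numbered samples' deviations from their group means was -0.29, 0.31, and 0.39. Deviations from a mean of 3 samples depend on each other, so these values cannot decide it. Over all genes tested, the calls went from 786 of 26154 to 1256 of 26154 with DESeq2 and 1868 of 42234 with no filter. They were 2034 of 26154 with the block and 903 of 14822 with the block over genes with at least 10 counts. With each sample left out they ran from 263 of 25348 to 3579 of 25478, the highest without TRM-like replicate 3. Leaving out a sample turned the direction of *Socs2* (-0.47 to 0.028) and *Stat5a* (-0.0086 to 0.11), neither of which passed the test, and of no other member. Of the 9 ratios, *Cish* over *Socs1*, whose groups overlapped, turned direction with a sample left out (-0.31 to 0.025). Every alternative that kept all samples, the block included, had *Socs1* and *Pim2* past the threshold. The block added *Cish*, *Socs3*, and *Pim1*. In that fit edgeR's prior degrees of freedom were infinite, against 4.97 without the block. A gene's own spread thus did not enter its quasi-likelihood dispersion, which limits these calls. With the block over genes with at least 10 counts the prior was 8.30, and each of these genes was also past the threshold. The adjusted p alone called the same number of members, 2.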

Other observations

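In 4 further genes of the STAT5 target and receptor lists, named after their values were seen, TRM-like replicate 3 also lay apart from replicates 1 and 2. *Osm*, which encodes the cytokine oncostatin M, was at 24.6, 19.9, and 28.8 CPM in the TEff samples, at 10.8 and 12.1 CPM in TRM-like replicates 1 and 2, and at 36.6 CPM in replicate 3. *Ccnd3*, which encodes cyclin D3, was at 87.1, 73.5, and 92.9 CPM in the TEff samples, at 61.4 and 64.4 CPM in TRM-like replicates 1 and 2, and at 117 CPM in replicate 3. *Lta*, which encodes lymphotoxin α, was at 24.1, 11.7, and 25.1 CPM in the TEff samples, at 19.1 and 18.4 CPM in TRM-like replicates 1 and 2, and at 57.4 CPM in replicate 3. *Il2rb*, which encodes the β chain of the IL-2 and IL-15 receptors, was at 1257 and 1304 CPM in TRM-like replicates 1 and 2 and at 888 CPM in replicate 3, below the lowest TEff sample at 1120 CPM. None of the 4 passed edgeR's test over all samples. The adjusted p from edgeR was 0.801 for *Osm*, 0.940 for *Ccnd3*, 0.589 for *Lta*, and 0.954 for *Il2rb*. Without TRM-like replicate 3, *Osm* passed it, at a log2FC of -1.10 (edgeR adjusted p = 0.000321).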
